A study of Sus scrofa with 12 samples.

Results

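Transcript levels of 9 cytoskeleton genes were compared between separate fresh and vitrified groups of pig (Sus scrofa) blastocysts. Vitrification is cooling fast enough for water to set as a glass. The genes were taken by symbol from a fixed list and are the actins ACTB and ACTG1, the actin-turnover genes CFL1 and PFN1, the tubulins TUBA1A, TUBA1B and TUBB2A, the non-muscle myosin MYH9 and the focal adhesion gene ZYX. All 9 were found among the 31781 gene identifiers of the table, and all 9 passed the filter on low values that left 9411 genes for testing. The list was drawn up with earlier results of these data known, so its counts are set beside those of all genes tested.

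The embryos were made by parthenogenetic activation, in which an egg is induced to divide without sperm, and they carry no paternal genome. The groups are a fresh control (3 libraries), vitrification (2 libraries in the table, of 3 in the labels), vitrification I (3 libraries) and vitrification II (3 libraries). The third vitrification library was not analysed here. The sources used here do not say how the 3 vitrified groups were treated, and the liquid helium of the series title is assigned to none of them by the labels. Libraries were made by Smart-Seq2, an oligo-dT method for very small inputs. The labels call the source a blastocyst while the protocol describes sorted single cells, so replicates are libraries whose spread may be technical, and the number of cells or embryos behind each is not given. In such samples, fewer cells of a type and less RNA per cell cannot be told apart.

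Actin filaments lie under the cell membrane and along cell contacts, and in the blastocyst they hold the outer epithelium, the trophectoderm, together as the cavity expands. Profilin loads actin monomers for growth and cofilin severs old filaments, so that filaments turn over. Non-muscle myosin pulls on the filaments, zyxin sits where tensed filaments meet adhesion sites, and tubulins build the microtubules of the spindle and of transport. Vitrification solutions and cooling are known to disturb filaments and microtubules as structures. Transcript levels, which are what was measured here, do not report on the state of the filaments.

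The libraries differed in composition as well as in the cytoskeleton values given below. The mitochondrial genome gave 37.6% to 43.9% of the summed FPKM (fragments mapped to a gene, divided by its length and by the size of the library) in fresh control, 38.7% and 51.8% in vitrification, 43.8% to 64.3% in vitrification I and 16.9% to 22.1% in vitrification II. Genes above 0 numbered 15383 to 16046, 18527 and 17726, 11550 to 14039, and 15415 to 16204 in the same order. Of 10 trophectoderm markers 9 had an identifier, and their summed FPKM was 10273 to 15276 in fresh control, 16842 and 6446 in vitrification, 2461 to 5684 in vitrification I and 13423 to 21826 in vitrification II, most of it KRT8 and KRT18. The 9 markers did not move together in vitrification I. KRT8, KRT18, TEAD4 and ELF3 lay below every fresh control library, while CDX2, GATA2, GATA3 and TFAP2C overlapped with fresh control. TFAP2A was higher, at 153.5, 95.8 and 120.7 against 13.7, 9.42 and 6.21 in fresh control. The sums of other lists were low beside the trophectoderm sum in every library. Cumulus and granulosa markers summed to at most 3.99, and leukocyte and erythroid markers to at most 20.2, with PTPRC and ALAS2 at 0 throughout. Maternal oocyte transcripts summed to at most 13.4, hypoblast markers to at most 48.5 and epiblast markers to at most 10.99. Identifiers were found for 5 of 7, 7 of 8, 7 of 7, 5 of 6 and 4 of 7 markers in the same order. The epiblast markers POU5F1, SOX2 and TDGF1 and the hypoblast marker SOX17 had none, so the sums do not cover them. Most of the hypoblast sum was GATA6, at 10.2 to 39.9 FPKM. In every library GATA6 was above the trophectoderm factor CDX2 (1.21 to 4.99). The part of composition in the results below was not tested, apart from the rescaled fits and within-library ratios given beside them.

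ACTB encodes beta-actin, a filament subunit of nearly all cells that is often used as a reference gene. Its FPKM was 413, 589.5 and 407 in fresh control, 392 and 91.0 in vitrification, 31.9, 90.9 and 45.3 in vitrification I, and 498, 859 and 749.9 in vitrification II. Every vitrification I library lay below every fresh control and vitrification II library, and the second vitrification library reached the level of the highest vitrification I library. From mean FPKM 469.8 ± 104 (SD, n = 3) in fresh control to 56.0 ± 30.9 (SD, n = 3) in vitrification I, ACTB fell by 3.16 ± 0.50 (SE) on the log2(FPKM + 1) scale, with an adjusted p of 0.00105. Vitrification II lay 3.72 ± 0.50 log2 above vitrification I (adjusted p = 0.000120). Its difference from fresh control was 0.56 ± 0.50 log2 with overlapping libraries (adjusted p = 0.413), against a shift of 0.62 in the median of all genes. From the highest to the lowest library the level spanned 26.9-fold.

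ACTG1 encodes gamma-actin, which differs from beta-actin at a few residues near its start, and had the higher FPKM of the pair in each of the 11 libraries. It was 909.7, 3638 and 2802 in fresh control, 2667 and 1089 in vitrification, 275, 535 and 329.7 in vitrification I, and 1748, 1043 and 1454 in vitrification II. The first control library was far below the others, which left fresh control and vitrification II overlapping. ACTG1 fell by 2.52 ± 0.49 log2 in vitrification I against fresh control (adjusted p = 0.00367), and was 1.92 ± 0.49 higher in vitrification II than in vitrification I (adjusted p = 0.00730). Without the filter on low values both calls ended (adjusted p = 0.0511 and 0.0716). Its order of group means put fresh control first, then vitrification, vitrification II and vitrification I, and only the last step passed the test. Against fresh control it stood at -0.60 ± 0.49 log2 in vitrification II (adjusted p = 0.377), and without the first control library this value was -1.21 (adjusted p = 0.0498), a call made in that fit alone.

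How the authors' pipeline shared reads between near-identical genes is not given in the sources used here, so single actin and tubulin values are uncertain. Summing ACTB and ACTG1 in each library, a step added after the values were seen, gave 1322, 4228 and 3209 FPKM in fresh control, 3059 and 1179.5 in vitrification, 307, 625 and 375 in vitrification I, and 2246, 1902 and 2204 in vitrification II. The sum fell by 2.65 ± 0.46 log2 in vitrification I (adjusted p = 0.00174) and was 2.34 ± 0.46 higher in vitrification II than in vitrification I (adjusted p = 0.00131). Between vitrification II and fresh control it was -0.31 ± 0.46 (adjusted p = 0.632).

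**Figure D1:**
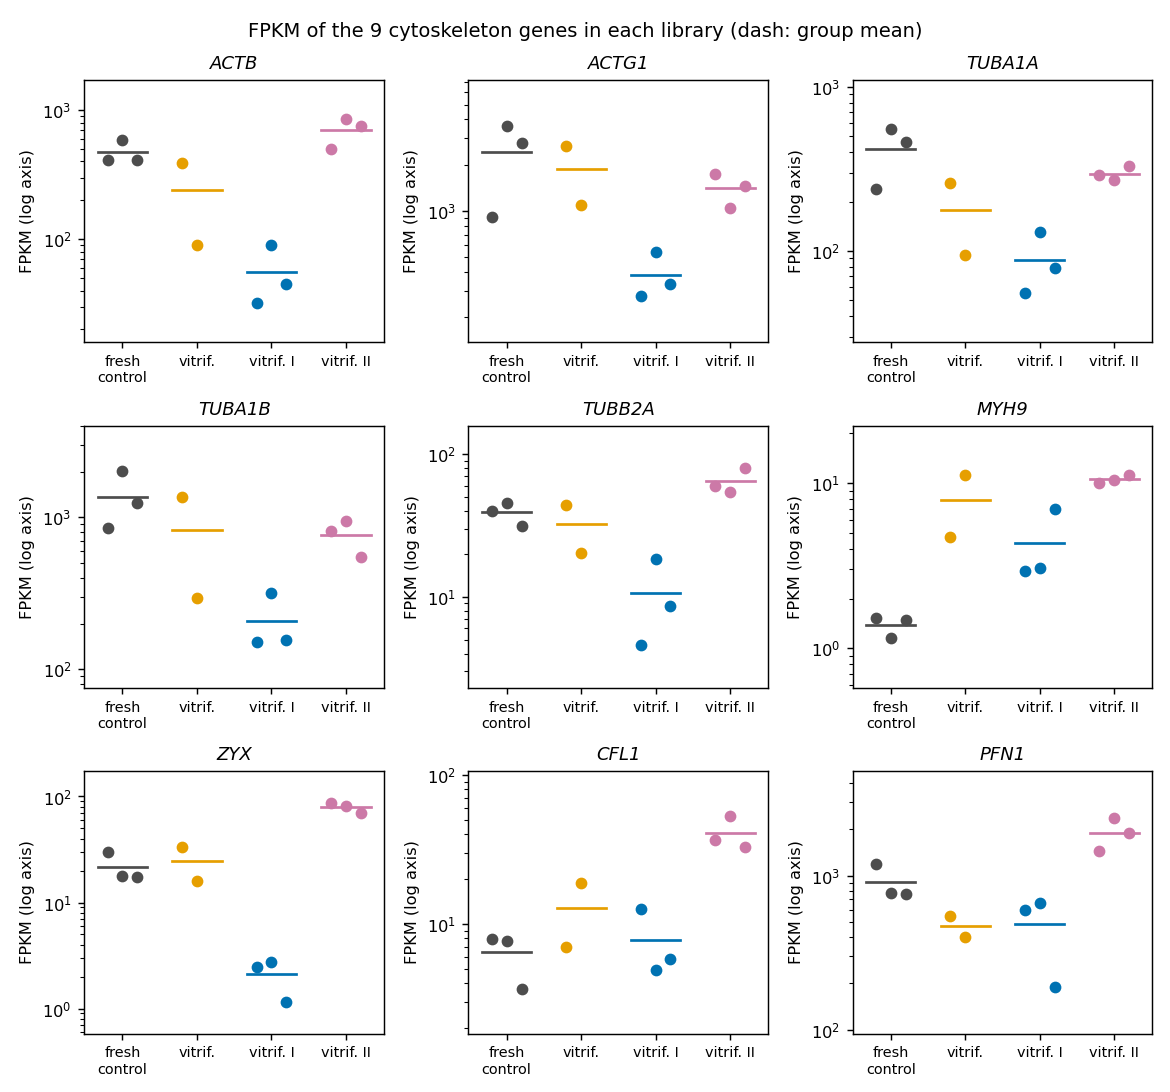
FPKM of each of the 9 genes (log axis) in every library of the 4 groups, with 1 point a library and a dash at the group mean. The actin, tubulin and ZYX points of vitrification I lie below those of fresh control, while MYH9 points of all vitrified libraries lie above the fresh control points.

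PFN1 encodes profilin-1, which binds actin monomers and feeds them to growing filament ends. Its FPKM was 1191, 766 and 763 in fresh control, 546 and 402 in vitrification, 597, 664 and 189 in vitrification I, and 1452, 2372 and 1879.7 in vitrification II. All vitrification II libraries were above all others, while the vitrification and vitrification I libraries overlapped. Vitrification II exceeded vitrification I by 2.14 ± 0.44 log2 (adjusted p = 0.00175). It exceeded vitrification by 1.99 ± 0.49 (adjusted p = 0.0329), a call that ended in 9 of 17 alternative fits, among them those without either vitrification library (adjusted p = 0.114 and 0.146) or any 1 vitrification II library (0.0597 to 0.0982). The values against fresh control, -1.07 ± 0.44 in vitrification I (adjusted p = 0.0994) and 1.07 ± 0.44 in vitrification II (adjusted p = 0.0811), did not pass. The first was called without vitrification I replicate 2 (adjusted p = 0.0439), and the second without vitrification I replicate 3 (0.0220) and in a fit of those 2 groups only (0.0192).

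CFL1 encodes cofilin-1, which severs actin filaments. It was 7.92, 7.72 and 3.67 in fresh control, 7.02 and 18.7 in vitrification, 12.6, 4.94 and 5.86 in vitrification I, and 36.9, 52.9 and 32.6 in vitrification II. Vitrification II stood clear of every other library, and the remaining groups overlapped. CFL1 rose by 2.52 ± 0.45 log2 in vitrification II against fresh control (adjusted p = 0.00168), which is 1.90 beyond the median of all genes, and was 2.32 ± 0.45 above vitrification I (adjusted p = 0.00125). In vitrification I the difference from fresh control was 0.20 ± 0.45 (adjusted p = 0.793), and its sign turned without control replicate 3 (-0.10) or without vitrification I replicate 1 (-0.16).

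Among the tubulins, TUBA1B, a widely expressed alpha-tubulin, was the most abundant. Its FPKM was 848, 2007 and 1233 in fresh control, 1353 and 292 in vitrification, 151, 316 and 155 in vitrification I, and 816, 947 and 544 in vitrification II. The vitrification I libraries lay below those of fresh control and vitrification II, and again the second vitrification library sat within the range of vitrification I. TUBA1B fell by 2.71 ± 0.51 log2 in vitrification I against fresh control (adjusted p = 0.00312), and vitrification II was 1.94 ± 0.51 above vitrification I (adjusted p = 0.00861). The second of these calls ended when the low-value filter was removed (adjusted p = 0.0793).

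TUBA1A, an alpha-tubulin prominent in neural cells, was 239, 553 and 464 in fresh control, 261 and 94.0 in vitrification, 55.6, 130.2 and 78.6 in vitrification I, and 289.9, 269.9 and 328 in vitrification II. It fell by 2.24 ± 0.44 log2 in vitrification I (adjusted p = 0.00397) and was 1.82 ± 0.44 higher in vitrification II than in vitrification I (adjusted p = 0.00540). The 3 vitrification II libraries lay close together and inside the fresh control range. TUBA1A and TUBA1B encode nearly the same protein, and in the RefSeq order of Sscrofa11.1 they lie near each other with a single protein-coding locus between them. Their sum fell by 2.59 ± 0.49 log2 in vitrification I (adjusted p = 0.00305) and was 1.92 ± 0.49 higher in vitrification II than in vitrification I (adjusted p = 0.00685).

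TUBB2A, a beta-tubulin, the partner subunit of the alpha-tubulins, was 39.9, 45.6 and 31.5 in fresh control, 44.3 and 20.4 in vitrification, 4.60, 18.5 and 8.67 in vitrification I, and 60.3, 54.3 and 79.3 in vitrification II. The groups other than vitrification did not overlap, with vitrification I lowest and vitrification II highest. It fell by 1.96 ± 0.45 log2 in vitrification I against fresh control (adjusted p = 0.00855), a call that ended with no filter (adjusted p = 0.0551), and was 2.67 ± 0.45 higher in vitrification II than in vitrification I (adjusted p = 0.000476). Against fresh control vitrification II was at 0.71 ± 0.45 (adjusted p = 0.248), close to the median of all genes. Summed with its near-identical gene TUBB2B it gave -1.92 ± 0.49 in vitrification I against fresh control (adjusted p = 0.0143) and 2.66 ± 0.49 in vitrification II against vitrification I (adjusted p = 0.000857).

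MYH9 encodes the heavy chain of non-muscle myosin IIA, the motor that contracts actin bundles. Its FPKM was 1.52, 1.15 and 1.48 in fresh control, 4.72 and 11.1 in vitrification, 2.94, 3.07 and 6.99 in vitrification I, and 10.0, 10.5 and 11.1 in vitrification II. All 8 vitrified libraries were above all 3 control libraries. MYH9 rose by 2.28 ± 0.39 log2 in vitrification II (adjusted p = 0.00140), from mean FPKM 1.38 ± 0.20 to 10.5 ± 0.57 (SD, n = 3 each). At these low levels the log2(FPKM + 1) scale understates the change. The vitrification and vitrification I values, 1.81 ± 0.44 (adjusted p = 0.0542) and 1.09 ± 0.39 (adjusted p = 0.0662), missed the threshold. The first passed it with no filter (adjusted p = 0.0468), without vitrification replicate 1 (adjusted p = 0.0436) and without vitrification I replicate 3 (0.0371), and the second with a pseudocount of 0.1 (0.0411), without vitrification replicate 2 (0.0495) and on the non-mitochondrial total (0.0361). Vitrification II exceeded vitrification I by 1.19 ± 0.39 (adjusted p = 0.0261), of which 0.51 lay beyond the median of all genes, and this call ended without the filter (adjusted p = 0.0621), after quantile normalization (0.519) and after rescaling to the non-mitochondrial total (0.331). It also ended without vitrification I replicate 1 or 2 or without any 1 vitrification II library (adjusted p from 0.0571 to 0.0912).

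ZYX encodes zyxin, a LIM-domain protein that brings actin assembly factors to strained filaments at adhesions. Its FPKM was 30.0, 17.6 and 17.3 in fresh control, 33.7 and 16.0 in vitrification, 2.47, 2.72 and 1.16 in vitrification I, and 86.3, 81.0 and 70.3 in vitrification II. Fresh control and vitrification overlapped, vitrification I lay below both and vitrification II above both. ZYX fell by 2.86 ± 0.39 log2 in vitrification I (adjusted p = 0.000468) and rose by 1.86 ± 0.39 in vitrification II (adjusted p = 0.00414), and these calls held in all 17 alternative fits. The difference between vitrification II and vitrification I, 4.72 ± 0.39 (adjusted p = 5.59e-06), lay at percentile 99.9 of the changes of all genes tested. It had the widest range of the 9 genes, 74.6-fold between its highest and lowest library. Vitrification II was also above vitrification, by 1.72 ± 0.43 (adjusted p = 0.0347), but this call ended in 9 of 17 alternative fits, among them those without control replicate 3 (adjusted p = 0.0504), either vitrification library (0.0669 and 0.199) or any 1 vitrification II library (0.0786 to 0.0919).

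**Figure D2:**
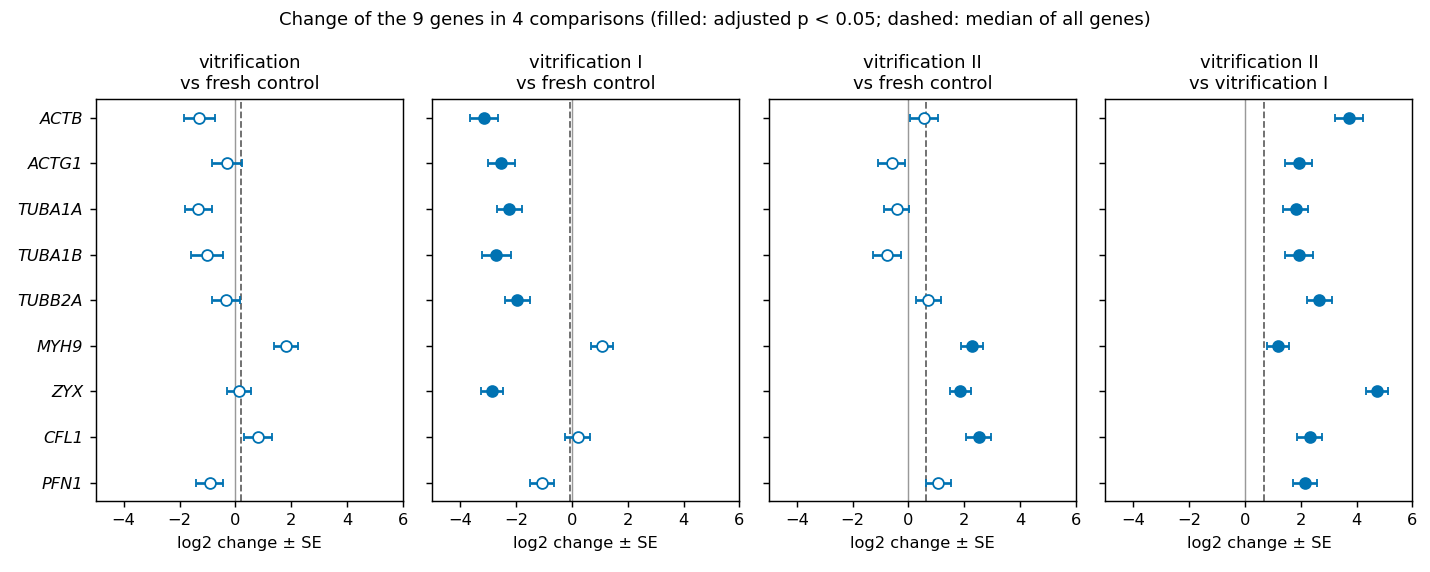
Log2 change ± SE of the 9 genes from the limma fit in 4 comparisons, with filled points for an adjusted p under 0.05, a grey line at 0 and a dashed line at the median of all genes tested. The actins, tubulins and ZYX are filled and below 0 in vitrification I against fresh control, and all 9 genes are filled and above 0 in vitrification II against vitrification I.

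Counted together, 6 of the 9 genes fell and 0 rose in vitrification I against fresh control, where 18.6% of all genes tested were called, 8.85% higher and 9.77% lower. Their median change was -2.24 log2 beside -0.06 for all genes. The 6 calls were ACTB, ACTG1, TUBA1A, TUBA1B, TUBB2A and ZYX. Leaving out any single library gave 6 or 7 called genes, and the rescaled and quantile-normalized fits kept all 6 lower. With no filter the calls of ACTG1 (adjusted p = 0.0511) and TUBB2A (0.0551) ended.

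In vitrification II against fresh control 3 of the 9 genes rose, MYH9, ZYX and CFL1, and 0 fell, where 25.7% of all genes were called and 24.6% were higher. This share is near that background. The median change of the 9 genes was 0.71 log2 and that of all genes 0.62. Actin and tubulin transcripts were thus not called in either direction in this comparison, with values from -0.77 ± 0.51 for TUBA1B to 0.71 ± 0.45 for TUBB2A.

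Vitrification II against vitrification I gave 9 of 9 genes higher, where 38.4% of all genes were called, 34.7% higher and 3.75% lower, and with median changes of 2.14 log2 for the 9 genes and 0.68 for all. This comparison shares its vitrification I libraries with the one above, so the fall there and the difference here rest partly on the same 3 libraries. The MYH9 call was lost under both other scalings, as given above, and the other 8 stayed higher under them. With no filter the calls of ACTG1 (adjusted p = 0.0716), TUBA1B (0.0793) and MYH9 (0.0621) ended.

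For vitrification against fresh control limma called 0 of the 9 genes, where 1.37% of all genes were called, with 1.25% higher and 0.117% lower. Without adjustment 3 of the 9 had a p under 0.05, beside 1709 of all 9411 genes, namely ACTB, TUBA1A and MYH9, with values of -1.29 ± 0.56, -1.33 ± 0.50 and 1.81 ± 0.44. The 2 libraries of this group stood far apart, and the second, with the lower actin and tubulin, had the higher MYH9, CFL1 and mitochondrial share.

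Vitrification I was also below vitrification for 2 of the 9 genes, ZYX (-3.00 ± 0.43, adjusted p = 0.00290) and ACTG1 (-2.22 ± 0.55, adjusted p = 0.0319), where 5.63% of all genes were called and 4.42% were lower. Vitrification II was above vitrification for ZYX and PFN1, where 5.98% of all genes were called, 5.05% higher and 0.935% lower. With 2 vitrification libraries these counts depended on single libraries. Without vitrification replicate 1, 0 of the 9 genes were called in the first of these comparisons, with adjusted p of 0.0726 for ZYX and 0.220 for ACTG1. The ACTG1 call also ended without vitrification replicate 2 (adjusted p = 0.0551) and without vitrification I replicate 1 (0.106) or 3 (0.0755). Without vitrification replicate 2 or any 1 vitrification II library, 0 were called in the second.

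Ratios of 2 genes within a library do not depend on how libraries are scaled, and they were read as a description without a test. The FPKM of ACTG1 over ACTB was 2.21 to 6.88 in fresh control, 6.81 and 11.96 in vitrification, 5.88 to 8.62 in vitrification I and 1.21 to 3.51 in vitrification II. Vitrification II thus had the share of the actin pair most tilted to ACTB, overlapping only with the lowest control value, that of the first library. TUBA1A over TUBA1B was 0.276 to 0.376 in fresh control and overlapped it in each vitrified group, at 0.193 and 0.321, 0.369 to 0.506, and 0.285 to 0.604.

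PFN1 over ACTB was 1.30 to 2.89 in fresh control, 1.39 and 4.42 in vitrification, 4.16 to 18.7 in vitrification I and 2.51 to 2.91 in vitrification II. In vitrification I profilin transcripts outnumbered those of ACTB by more than in any control library. CFL1 over ACTB was 0.00900 to 0.0192 in fresh control, 0.0179 and 0.206 in vitrification, 0.0543 to 0.394 in vitrification I and 0.0435 to 0.0740 in vitrification II. MYH9 over ACTB was 0.00195 to 0.00368 in fresh control and higher in every vitrified library, at 0.0121 and 0.122 in vitrification, 0.0338 to 0.154 in vitrification I and 0.0122 to 0.0201 in vitrification II. ZYX over ACTB overlapped between fresh control (0.0299 to 0.0728) and vitrification I (0.0255 to 0.0774), where both genes were low, and was 0.0861 and 0.176 in vitrification and 0.0938 to 0.173 in vitrification II.

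KRT8, the keratin that makes up much of the trophectoderm marker sum, was used as a further denominator after its values were seen. ACTB over KRT8 was 0.0472 to 0.0650 in fresh control, 0.0304 and 0.0222 in vitrification, 0.0261 to 0.0291 in vitrification I and 0.0462 to 0.0510 in vitrification II. ACTB was thus lower in vitrification I also relative to this keratin, by a smaller factor than in FPKM. TUBA1B over KRT8 overlapped between fresh control (0.134 to 0.194) and vitrification I (0.0895 to 0.137), and was lowest in vitrification II (0.0370 to 0.0773). ZYX over KRT8 overlapped between fresh control and vitrification I, and MYH9 over KRT8 was above the fresh control range in all vitrified libraries. CFL1 over KRT8 was 0.00145 to 0.0114 in vitrification I, above fresh control (0.000425 to 0.00125). PFN1 over KRT8 overlapped between vitrification I (0.109 to 0.544) and fresh control (0.0741 to 0.188).

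**Figure D3:**
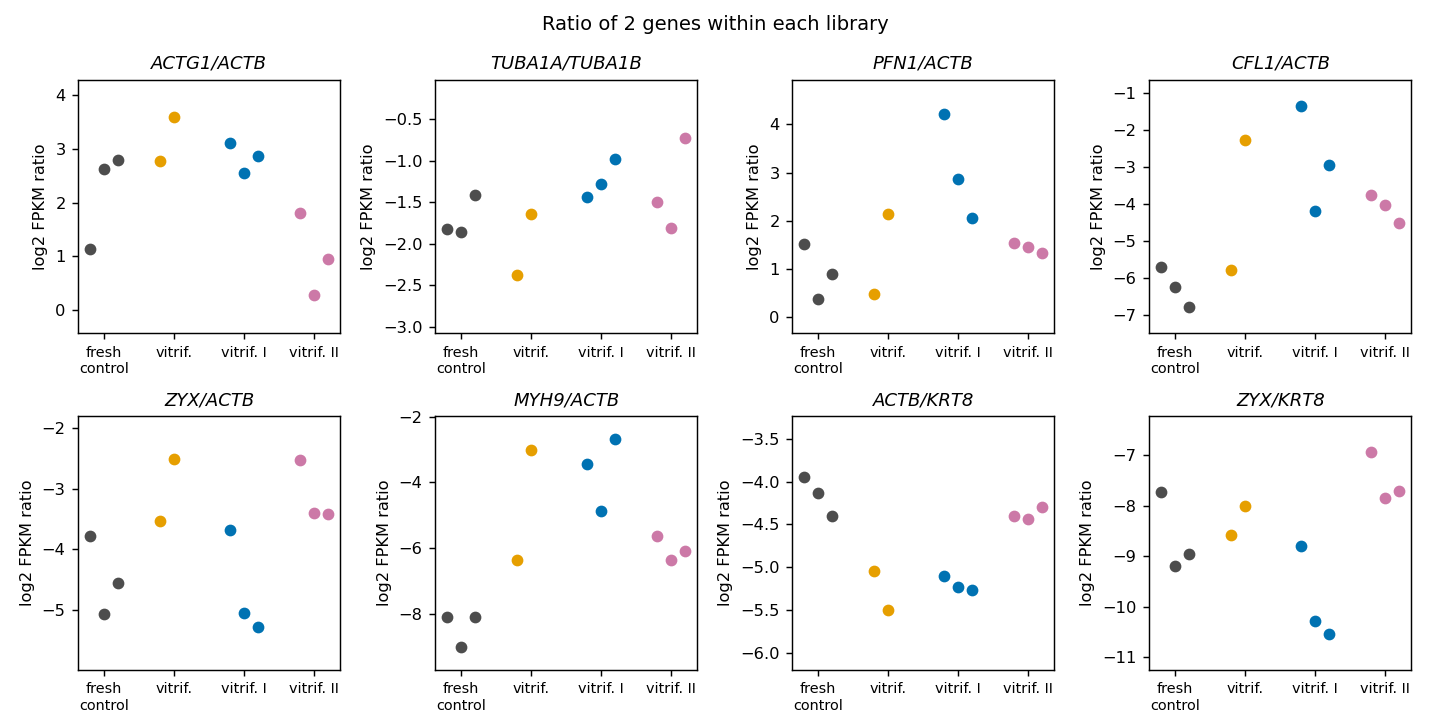
Log2 ratio of the FPKM of 2 genes in each library, in 8 panels for 6 ratios between cytoskeleton genes and 2 ratios to the keratin KRT8, with 1 point a library coloured by group. MYH9/ACTB is above the fresh control points in every vitrified library, and the ACTG1/ACTB points of vitrification II lie lowest, overlapping those of fresh control.

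The wider cytoskeleton was read from 8 lists that hold 96 further genes, of which 90 had an identifier and 84 passed the filter. In vitrification I against fresh control 9 of the 84 were higher and 15 lower, beside 8.85% and 9.77% among all genes, with a median of -0.27 log2 beside -0.06. The share of higher genes is near that background. That balance moved with the scaling, since the counts were 14 and 9 on the non-mitochondrial total and 11 and 11 under quantile scaling, and with no filter they were 4 and 4. It also moved with single libraries, with 2 higher and 5 lower without control replicate 2, 4 and 10 without control replicate 3, 5 and 8 without vitrification I replicate 1, and 9 and 6 without vitrification I replicate 3. In some of these fits calls over all genes, 833 higher and 919 lower, fell as well. They were 443 and 463 with no filter, 374 and 458 without control replicate 2, 449 and 471 without control replicate 3, and 538 and 473 without vitrification I replicate 1. All-gene counts under the 2 other scalings and without vitrification I replicate 3 are not given here. The list counts of those fits therefore have no background beside them.

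Of 6 further tubulin isotypes 4 were lower in vitrification I and 0 higher, among them the beta-tubulins TUBB (-1.72 ± 0.45, adjusted p = 0.0160) and TUBB6 (-1.70 ± 0.43, adjusted p = 0.0139). All 4 calls ended without control replicate 2 (adjusted p = 0.0603 for TUBB and 0.0622 for TUBB6), without vitrification I replicate 3 (0.0635 and 0.0524) and with no filter (0.0945 and 0.0647), which left 0 of the list in each of these fits, and 1 was left without vitrification I replicate 1. Of 13 genes of actin monomer binding and filament turnover 4 were lower and 1 higher, the last being TWF1, twinfilin, which binds monomers (1.78 ± 0.42, adjusted p = 0.0108). Of 13 genes of actin nucleation 4 were lower and 1 higher. Without control replicate 2 these 2 lists kept 2 and 1 lower genes and 0 higher ones, and with no filter 1 and 2 lower and 0 and 1 higher. Within the Arp2/3 complex, which starts branched filaments, ACTR3 was lower (-1.55 ± 0.37, adjusted p = 0.0105) while ACTR2 was higher (1.29 ± 0.35, adjusted p = 0.0188). Without control replicate 2 the calls of TWF1 (adjusted p = 0.0609), ACTR3 (0.0622) and ACTR2 (0.0822) ended, and that of ACTR2 also without control replicate 3 (0.0781) or vitrification I replicate 1 (0.0792) and that of TWF1 with no filter (0.0541). CTTN, cortactin, which stabilizes filament branches, was lower (-2.06 ± 0.38, adjusted p = 0.00297), and its call held in all 17 alternative fits.

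Actin crosslinking and membrane linkage genes had 2 of 10 higher and 0 lower in vitrification I, among them PLS3, plastin-3 (1.70 ± 0.44, adjusted p = 0.0159), which is named here after its values were seen. Its call ended without control replicate 2 (adjusted p = 0.0711) or 3 (0.0752) and with no filter (0.0755), and without control replicate 2 the list had 0 calls. Myosin and contraction genes had 2 of 13 in each direction. The myosin light chain MYL9 was lower (-2.06 ± 0.48, adjusted p = 0.00946, and 0.0681 with no filter) and the small GTPase RAC1, which drives branched actin growth, was higher (1.95 ± 0.33, adjusted p = 0.00146). Other focal adhesion genes had 3 of 15 higher and 1 lower, with 1 higher left without control replicate 2 or 3, without vitrification I replicate 1 or with no filter. The lower gene was ILK, a scaffold that ties integrins to actin (-2.82 ± 0.53, adjusted p = 0.00312), while LASP1, an actin-binding LIM protein, was higher (3.18 ± 0.43, adjusted p = 0.000455), from mean FPKM 10.0 to 112.

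In vitrification II against fresh control 30 of the 84 genes were higher and 0 lower, beside 24.6% higher among all genes, with a median of 0.77 log2 beside 0.62. The count was 19 on the non-mitochondrial total, 10 under quantile scaling, 17 with no filter, 16 without control replicate 2, 17 without control replicate 3 and 15 without vitrification II replicate 3, each with 0 lower. Higher calls over all genes fell in these fits too, from 2319 to 1191, 387, 1332, 986, 1194 and 1357 in the same order. Of 10 crosslinking genes 6 were higher (3 under quantile scaling), led by ANLN, anillin of the cytokinetic ring (3.12 ± 0.44, adjusted p = 0.000483), PLS1, plastin-1 (2.60 ± 0.54, adjusted p = 0.00414), and ACTN1, alpha-actinin-1 (2.53 ± 0.41). Of 15 focal adhesion genes 7 were higher, with 3 left under either other scaling or without control replicate 3 or vitrification II replicate 3, and 4 with no filter or without control replicate 2 or vitrification II replicate 1. Among them were VCL, vinculin, which couples talin to actin (2.74 ± 0.37, adjusted p = 0.000382), PXN, paxillin (2.67 ± 0.37), and LASP1 (2.71 ± 0.43). ACTR2 (2.97 ± 0.35, adjusted p = 0.000217) and TWF1 (2.93 ± 0.42, adjusted p = 0.000556) were higher too, and 0 of the 6 further tubulin isotypes were called.

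Between vitrification II and vitrification I 41 of the 84 genes were higher and 0 lower, beside 34.7% higher among all genes, with a median of 1.12 log2 beside 0.68. On the non-mitochondrial total 23 were higher and 2 lower, beside 1552 and 711 of all genes. Under quantile scaling the list counts were 25 and 5, with no all-gene counts of that fit given here to set beside them. Genes whose call held in all 17 alternative fits include MYL9 (4.04 ± 0.48, adjusted p = 5.08e-05), the capping protein subunit CAPZB (3.53 ± 0.48), ILK (3.13 ± 0.53), the severing protein GSN, gelsolin (3.04 ± 0.46), PXN (2.85 ± 0.37) and ACTN1 (2.60 ± 0.41). TUBB (2.42 ± 0.45), TUBB2B (2.43 ± 0.53) and TUBG1, gamma-tubulin of microtubule-organizing centres (2.25 ± 0.45), held as well. In vitrification against fresh control 2 of the 84 were higher and 0 lower, beside 1.25% and 0.117% among all genes. Among them was RAC1 (2.54 ± 0.36, adjusted p = 0.0118). Its call ended in a fit of those 2 groups only (adjusted p = 0.0579), without control replicate 2 (0.0761) and without vitrification replicate 2 (0.0964).

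**Figure D4:**
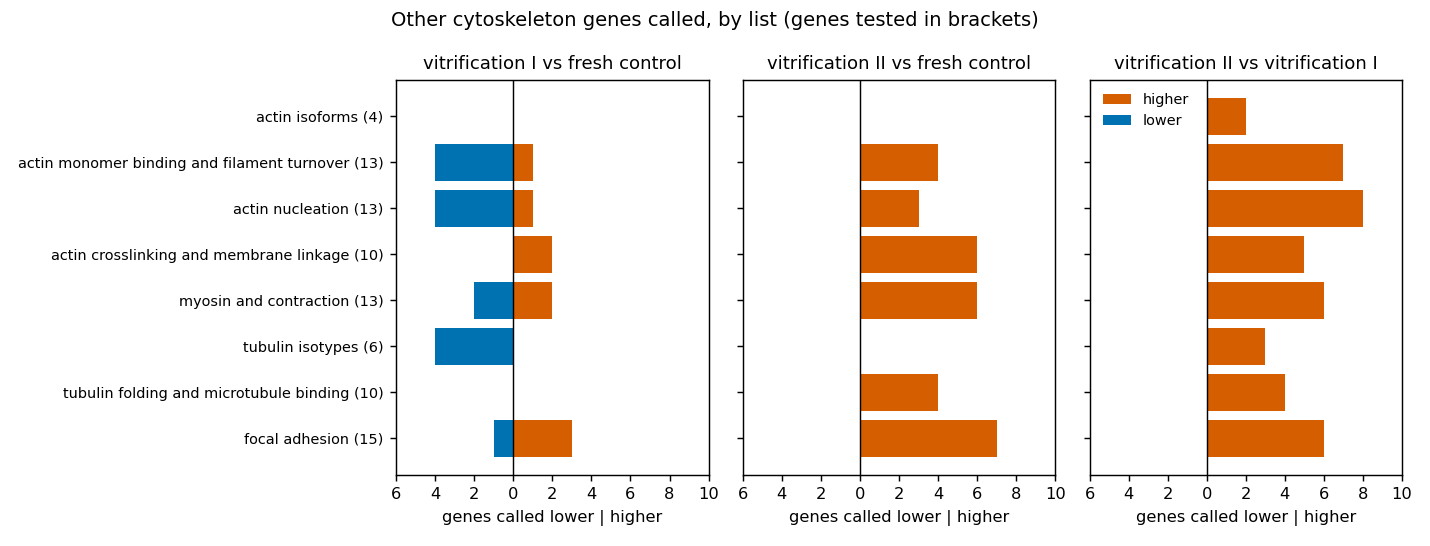
Number of further cytoskeleton genes called higher (to the right) and lower (to the left) in each of 8 lists, without the 9 main genes, in 3 comparisons, with the number tested in brackets. Tubulin isotypes are called lower in vitrification I against fresh control, calls that end without control replicate 2, and all calls in the other 2 comparisons are higher.

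The library profiles nearest to each gene were found among 4101 other genes with a symbol and a mean FPKM of at least 5, by the root mean square difference of centred log2(FPKM + 1) over the 11 libraries. The genes nearest to ACTB were the glycolytic enzymes ALDOA (0.37) and ENO1 (0.42) and the keratin KRT8 (0.50). Nearest to both ACTG1 (0.39) and TUBA1B (0.38) was EIF4EBP1, which holds back cap-dependent translation, and nearest to TUBA1A was the ribosomal protein RPSA (0.30). TUBB2A was nearest to TUBB2B (0.27), then TPD52L2 (0.33) and TUBB (0.33). PFN1 had the closest profile of all, to PNO1, a ribosome assembly factor (0.22), and then to the translation helicase EIF4A1 (0.26).

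MYH9 lay nearest to the receptor ERBB3 (0.31), RCBTB1 (0.31) and VCL (0.32). ZYX lay nearest to TNFRSF12A (0.39), the TWEAK receptor, and to PPP2R1A (0.39), a phosphatase scaffold, and CFL1 to UTP6 (0.41). Among the 9 genes themselves the closest pairs were TUBA1A with TUBA1B (0.43), ACTG1 with TUBA1B (0.49) and ACTG1 with TUBA1A (0.53). The actins ACTB and ACTG1 differed more from each other (0.98) than either did from its nearest tubulin, TUBB2A for ACTB (0.61) and TUBA1B for ACTG1.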

How the data were processed

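RNA of pig parthenogenetic blastocysts was measured by Smart-Seq2 and paired-end sequencing, per the labels' protocols. The authors deposited 1 table of FPKM values for 31781 gene identifiers in 11 of the 12 labelled libraries, with 0 other columns of sample values. FPKM is scaled by gene length, so that levels of different genes can be set side by side. FastQC, TopHat2 2.0.13, Cufflinks 2.2.1 and DESeq2 are named in the submitters' processing notes without a role, and the genome build and the handling of reads shared between genes are not given in the sources used here. The table holds no counts, so the depth behind each value is unknown. Column names gave the libraries and the labels gave the groups, and 0 pairs of libraries held identical values.

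The 9411 genes that reached 1 FPKM in 3 or more libraries were tested on log2(FPKM + 1) with limma 3.58.1 (R 4.3.3, trended variance) over all 11 libraries, and Benjamini-Hochberg adjusted p-values under 0.05 over all 9411 genes were called. Every adjusted p in the text comes from this test, or, where an alternative or a left-out library is named beside it, from limma in that fit. Fold changes on this scale understate the change of low genes. Symbols came from a table of Ensembl gene names, which matched 15347 identifiers. The 9 genes were given in every comparison. Further genes were up to 4 called genes of each of 8 lists with the largest change, given a mean of 5 FPKM or more in the group where they were higher, and the 3 nearest profiles of each of the 9. The 9 genes, the lists and the marker genes were chosen with earlier results of these data known. Alternatives were a pseudocount of 0.1, no filter, quantile normalization, scaling to the total without the 13 mitochondrial genes, fits of 2 groups only, a replicate block and leaving out each library. Sums of near-identical genes were added after seeing the data. One further gene that the rule for named genes selects is not reported here.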

Additional observations from a re-analysis of the deposited data

How the results depend on the processing

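Over the alternatives, the added sums included, 864 values of the 9 genes kept direction and side of the threshold, 36 lost a call, 26 gained one and 22 changed sign, all of the last without a call. Genes called by limma in vitrification against fresh control (129, and 0 of the 9) were 68 with a pseudocount of 0.1, 656 with no filter (1 of the 9), 3 in a fit of 2 groups only and 55 with the replicate block. With no filter they were 906 in vitrification I (from 1752) and 1419 in vitrification II (from 2422) against fresh control. The same vitrification II comparison gave 676 after quantile normalization (387 higher, 289 lower) and 1306 on the non-mitochondrial total (1191 higher, 115 lower), from 2319 higher and 103 lower. In vitrification I against vitrification (530, and 2 of the 9) they were 921 with no filter (1 of the 9) and 296 with the block, and 4 of the 9 were called in a fit of 2 groups only. In vitrification II against vitrification (563, and 2 of the 9) they were 48 with a pseudocount of 0.1 (0 of the 9), 944 with no filter (1), 330 after quantile normalization (0), 98 on the non-mitochondrial total (0) and 1125 in a fit of 2 groups only (4). In vitrification II against vitrification I the non-mitochondrial total gave 2263 (from 3614). The cause of these shifts was not tested, beyond fewer libraries in the fits of 2 groups.

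Leaving out 1 library gave 0 (without control replicate 2) to 207 genes and 0 to 1 of the 9 in vitrification against fresh control, 832 (without control replicate 2) to 2029 and 6 to 7 in vitrification I, and 1017 (without control replicate 2) to 2715 and 3 to 4 in vitrification II. It gave 5 (without vitrification replicate 1) to 822 genes and 0 to 4 of the 9 in vitrification I against vitrification, 10 (without vitrification replicate 2) to 928 and 0 to 4 in vitrification II against vitrification, and 2673 to 3865 and 8 to 9 in vitrification II against vitrification I. Where 1 vitrification library was left, it was assumed to vary like the other groups. Log2 changes that turned sign this way, none of them called in the fit of all libraries, ranged in vitrification against fresh control from -0.95 to 0.34 for ACTG1, -2.13 to 0.079 for TUBA1B, -0.89 to 0.20 for TUBB2A and -0.37 to 0.66 for ZYX. For CFL1 in vitrification I they ranged from -0.16 to 0.44 against fresh control and from -1.26 to 0.034 against vitrification, and for PFN1 from -0.48 to 0.43 against vitrification. Values of vitrification II against vitrification ranged from -0.95 to 0.35 for ACTG1, -0.85 to 1.35 for TUBA1B and -0.074 to 1.01 for MYH9. Quantile normalization turned ACTG1 in vitrification against fresh control (0.035), PFN1 in vitrification I against vitrification (0.067) and MYH9 in vitrification II against vitrification (-0.19). The non-mitochondrial total turned the same PFN1 value (0.082) and TUBA1B in vitrification II against vitrification (-0.15). The sum of ACTB and ACTG1 turned ACTB in vitrification II against fresh control (-0.31) and ACTG1 in vitrification II against vitrification (0.15).

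Samples with the same replicate number did not deviate together (15 pairs, r from -0.16 to 0.14, 2 of them over 0.1), so the numbers were not taken as pairs. The replicate block turned 2 values without a call, ZYX in vitrification against fresh control (-0.0075) and PFN1 in vitrification I against vitrification (0.074), and it added a call for CFL1 in vitrification II against vitrification (1.90, adjusted p = 0.0495). Without counts, what depth limits cannot be given, and low genes such as MYH9 and CFL1 carry an unknown counting error.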

Other observations

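The protein-coding gene next to MYH9 in the RefSeq order of Sscrofa11.1 is TXN2, which encodes the thioredoxin of mitochondria, and it was named after its values were seen. Its FPKM was 84.1, 74.0 and 72.5 in fresh control, 10.9 and 8.47 in vitrification, 4.38, 6.94 and 2.26 in vitrification I, and 24.3, 26.5 and 18.4 in vitrification II. All 8 vitrified libraries lay below all 3 control libraries, while MYH9 lay above them in the same 8. TXN2 fell by 2.87 ± 0.41 log2 in vitrification (limma adjusted p = 0.0118), by 3.91 ± 0.37 in vitrification I (3.71e-05) and by 1.71 ± 0.37 in vitrification II (0.00516). The call in vitrification ended without control replicate 2, a fit in which 0 of all genes were called in that comparison. Neighbours of other members, PRPH, LMBR1L, EPHA1, MUS81, ENO3 and RNF167, were tested as well. Their limma adjusted p in vitrification against fresh control lay from 0.393 to 0.971. Against fresh control MUS81 was lower in vitrification I (-1.28 ± 0.30, adjusted p = 0.00975). RNF167 was higher in vitrification II (1.73 ± 0.57, adjusted p = 0.0361).

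The summed FPKM of the 9 genes took 0.666% to 1.30% of all FPKM in fresh control, 0.996% and 0.395% in vitrification, 0.139% to 0.342% in vitrification I and 1.10% to 1.14% in vitrification II. Of the FPKM outside the mitochondrial genome it took 1.19% to 2.09%, 1.63% and 0.818%, 0.388% to 0.609%, and 1.32% to 1.46% in the same order. The vitrification I libraries were thus lowest on both denominators.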
